A study of Zea mays subsp. mays with 11 samples.

Results

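The 72 loci described here are 24-PHAS loci of maize at which loaded small RNAs were depleted without AGO18 in anthers of both lengths measured. A 24-PHAS locus gives rise to phased small interfering RNAs (phasiRNAs) of 24 nt. A locus was taken when its mean abundance in the ago18 triple homozygous mutant plus 1 CPM (counts scaled to library size) was below 0.25 of the mean in the heterozygous siblings plus 1 CPM, at 5 mm and also at 2 mm. Of 229 24-PHAS loci in a table of 659 PHAS loci, 79 met this rule, and 7 of these were among 16 loci left out by name, which leaves 72. All 72 carry the meiotic label in the locus annotation of the study and none the premeiotic label, against 154 meiotic and 75 premeiotic loci among the 229. Of the 7 loci that met the rule but were left out by name, 6 were meiotic and the other was premeiotic. That all members are meiotic therefore rests on the list of names as well as on the ratios. The members were thus chosen by the CPM values of ago18HM and ago18HT at both lengths that are given below, so every difference between the genotypes at these loci is a description and was not tested.

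Small RNAs were isolated from anthers with the TraPR kit, in which an ion exchange resin holds back free nucleic acids and small RNAs bound in Argonaute complexes are collected in the eluate. The 11 libraries were 3 of ago18HM-5mm, 3 of ago18HT-5mm, 2 of ago18HM-2mm and 3 of ago18HT-2mm. The ago18HM plants were homozygous and the ago18HT siblings heterozygous for mutations in all AGO18 copies, with frameshift deletions made by CRISPR-Cas9 in AGO18a and AGO18b and a Mu transposon insertion in AGO18c. All plants were labelled as mostly B73, and no wild type was among the libraries. In these plants 2 mm anthers are meiotic and 5 mm anthers postmeiotic, and replicates came from different plants. The table holds small RNA loci only, so that neither AGO18 transcripts nor markers of anther cell types could be checked in it. Whole anthers were used, and fewer cells that make these small RNAs cannot be told apart from less loaded small RNA per cell.

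In grasses, meiotic 24-nt phasiRNAs arise in anthers from long noncoding precursors. The microRNA miR2275 directs the cut that starts phasing on these precursors, and the Dicer-like enzyme DCL5 cuts the double-stranded product into 24-nt duplexes. Argonaute proteins carry one strand of such a duplex, and the base at the 5′ end of a small RNA is one of the features by which Argonautes sort their cargo. AGO18 is an Argonaute clade of grasses that is known to load phasiRNAs in anthers.

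The most abundant small RNA annotated at a locus, its major small RNA, identifies what the locus makes. The 5 sequences below are those of the loci most abundant in ago18HT, with the 5′ base in capitals. B73_24PHAS_30735 shares the sequence of B73_24PHAS_30716.
B73_24PHAS_30716: Auacacuucucgcguuaacugcuc
B73_24PHAS_35073: Augaagccgauuguggacaucgau
B73_24PHAS_4228: Aagauaugauucuucucgucgaac
B73_24PHAS_10958: Auugauucuaugguugguacuuuc
B73_24PHAS_21580: Auaugauggcaagacguacagcuc

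A second set is shown because it belongs to 5 neighbouring loci of chromosome 1 with closely related major small RNAs. B73_24PHAS_4409 and B73_24PHAS_4411 have the same sequence as B73_24PHAS_4403. Capitals after the 5′ base mark where the others differ from it.
B73_24PHAS_4403: Acaaacgaucauaguagaaacaac
B73_24PHAS_4402: AcaaacgaucauaAuagGaacGac
B73_24PHAS_4408: AcaaacgaucauaAuagGaaUGac
Counted from 1 at the 5′ end, the substitutions relative to the major small RNA of B73_24PHAS_4402 are C21U in B73_24PHAS_4408, and A14G, G18A and G22A in B73_24PHAS_4403.

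Another 3 sequences of the 72 loci match, or nearly match, a locus outside the set. The first is also the major small RNA of B73_24PHAS_21376 and the second that of B73_24PHAS_26991. B73_24PHAS_35107 differs by the single substitution A4G from B73_24PHAS_35108, which lay just outside the rule.
B73_24PHAS_21379: Acagugacucaccagugcaugcac
B73_24PHAS_26992: Agacaaauacuuguagagcagguc
B73_24PHAS_35107: Aacaugguaguagucgagcaguga
B73_24PHAS_35108: AacGugguaguagucgagcaguga

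The last set holds the only major small RNAs among the 72 that were not 24 nt long or did not begin with A. The one of B73_24PHAS_21186 has 22 nt, and the other 3 begin with C.
B73_24PHAS_21186: Auugguucguuuucagauuguc
B73_24PHAS_4277: Ccacacgugaugucauggacgaag
B73_24PHAS_35090: Cgaugguggaaucgaucgaggcug
B73_24PHAS_48725: Cggagagguuaaugaucuuauuug

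Several libraries stood apart from their group at these loci. In ago18HT-2mm replicate 1 the 72 loci summed to 78595 CPM, against 160128 CPM and 137582 CPM in replicates 2 and 3, and it was the lowest ago18HT-2mm library at 69 of the 72 loci. The same library had 25306 CPM over the premeiotic 24-PHAS loci, against 9651 CPM and 11076 CPM in replicates 2 and 3, while the 21-PHAS loci summed to 77902 CPM, against 77677 CPM and 76943 CPM. Of the ago18HM-2mm libraries, replicate 2 was above replicate 1 at 68 of 72 loci, and ago18HM-5mm replicate 3 was the lowest of its group at 63 of 72. CPM values were whole multiples of a step within each library, to within 0.01 read, and the step placed the CPM denominator at 5419067 to 17805878 reads in the 5 mm libraries and at 33076189 to 53038060 reads in the 2 mm libraries. Depth and anther length therefore cannot be told apart. Reads at the 72 loci numbered 37388 to 148561 in ago18HM-5mm, 992352 to 1524204 in ago18HT-5mm, 728207 to 827245 in ago18HM-2mm and 3434930 to 5296415 in ago18HT-2mm.

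The 72 loci made up most of the meiotic 24-PHAS reads in both genotypes. Their share of all PHAS reads was far smaller in the mutant than in the heterozygotes. At 5 mm they summed to 8343, 8726 and 5601 CPM in ago18HM against 167462, 156999 and 132793 CPM in ago18HT. At 2 mm the sums were 13729.9 and 22424 CPM in ago18HM against the 78595, 160128 and 137582 CPM already given for ago18HT. The highest mutant library was below the lowest heterozygous one at either length. The mean of the sums at 5 mm was 7557 ± 1705 CPM in the 3 ago18HM libraries, against 152418 ± 17782 CPM in the 3 of ago18HT (± SD), which is 20.2-fold lower in the mutant. At 2 mm the mutant mean was 18077 ± 6148 CPM (SD, n = 2), against a heterozygous mean of 125435 ± 42102 CPM (SD, n = 3), which is 6.94-fold lower.

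**Figure D1:**
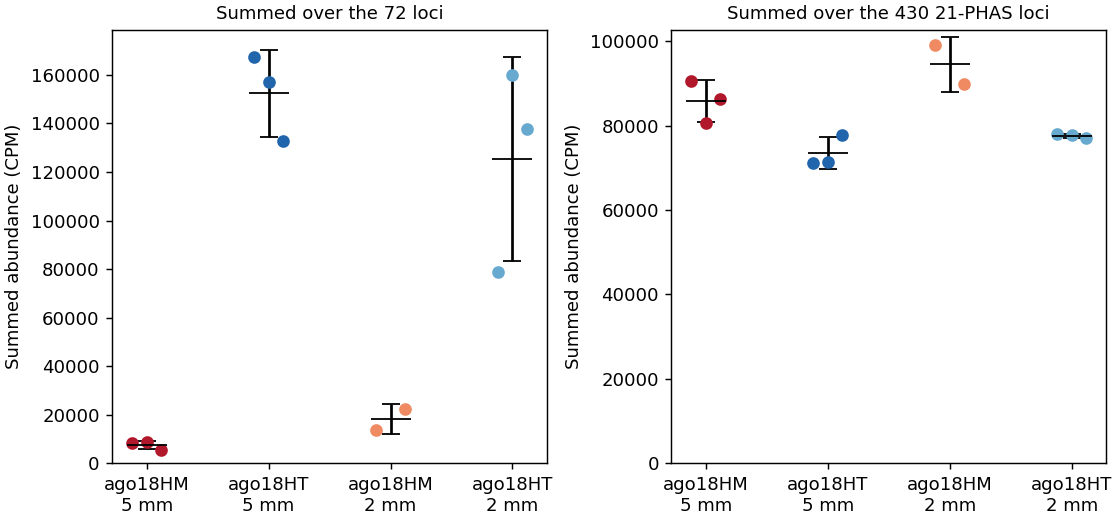
Summed abundance in CPM in each library (points) of the 4 groups, for the 72 loci (left) and for the 430 21-PHAS loci (right), with the mean and SD of each group as bars. The 72 loci lie between 5601 and 22424 CPM in the 5 ago18HM libraries and between 78595 and 167462 CPM in the 6 ago18HT libraries, while the 21-PHAS sums lie between 71226 and 99098 CPM in all 11.

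As a share of all PHAS reads the 72 loci held 5.41% to 8.23% in ago18HM-5mm, 43.5% to 48.3% in ago18HT-5mm, 10.3% to 15.9% in ago18HM-2mm and 35.6% to 49.3% in ago18HT-2mm. As a share of the meiotic 24-PHAS reads alone they held 50.6% to 51.8%, 60.4% to 62.9%, 52.1% to 54.0% and 66.5% to 67.5% in the same 4 groups. Both shares were thus lower in each mutant library than in every heterozygous library of its length. The other 82 meiotic loci include 15 of the loci left out by name, and 6 of these 15 met the limit at both lengths. These 82 had sums of 7218 ± 1517 CPM (SD, n = 3) in ago18HM-5mm, against 92992 ± 6255 CPM (SD, n = 3) for ago18HT-5mm, and were 12.9-fold lower in the mutant. At 2 mm these 82 loci were 3.9-fold lower, with 15874 ± 4601 CPM (SD, n = 2) for ago18HM against 61909 ± 20126 CPM (SD, n = 3) for ago18HT. Without the loci left out by name, the remaining 67 were 10.1-fold lower in ago18HM at 5 mm and 3.28-fold lower at 2 mm. The 21-PHAS loci, which form the other size class of reproductive phasiRNAs, had sums of 85735 ± 4953 CPM (SD, n = 3) in ago18HM-5mm, against 73471 ± 3754 CPM (SD, n = 3) for ago18HT-5mm, and of 94479 ± 6533 CPM (SD, n = 2) in ago18HM-2mm, against 77507 ± 501 CPM (SD, n = 3) for ago18HT-2mm. Divided by the 21-PHAS sum of the same library, the 72 loci were 23.6-fold lower in ago18HM at 5 mm and 8.35-fold lower at 2 mm.

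Locus by locus, the depletion was deeper at 5 mm than at 2 mm almost throughout. The ratio of ago18HM to ago18HT at 5 mm had a median of 0.0481 and ran from 0.0273 to 0.173, which is 5.80-fold to 36.6-fold lower in the mutant, with 62 loci more than 10-fold lower and 38 more than 20-fold lower. At 2 mm the median ratio was 0.153 and the range 0.0420 to 0.2499, or up to 23.8-fold lower, with 17 loci more than 10-fold lower and 1 more than 20-fold lower. The ratio was lower at 5 mm than at 2 mm at 71 of the 72 loci, with a median difference of -1.36 on the log2 scale and 16 loci below -2. Without ago18HT-2mm replicate 1 the median ratio at 2 mm was 0.124, and the ratio at 5 mm was the lower one at 66 of 72. In the other 82 meiotic loci the median difference was -1.68 on the log2 scale, with a lower ratio at 5 mm at 63. These 82 include the 40 loci that met the limit at 5 mm only, where the rule makes the ratio at 5 mm the lower one. At the 25 meiotic loci that met it at neither length, the ratio was lower at 5 mm at 10. Their median difference was 0.06, and their median level in ago18HT-5mm was only 3.005 CPM. Whether deeper depletion at 5 mm was particular to the 72 therefore cannot be read from these sets. Since the ratios chose the 72 loci, nothing is read from their size.

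Across the loci the ratios at both lengths had Pearson r = 0.36 and Spearman rho = 0.35 (72 loci that share the same libraries). The rule cut both ratios at 0.25, which narrows their range, so nothing is read from these 2 values. Abundance spanned a far wider range than the ratio: the mean over the ago18HT libraries ran from 25.7 to 7684 CPM with a median of 1286 CPM. Log2 abundance in the mutant and in the heterozygote had r = 0.93 at 5 mm and r = 0.95 at 2 mm across the 72 loci, and nothing is read from this, since the rule holds the ratio within a band far narrower than the range of abundance. Abundant loci had somewhat lower ratios at 5 mm (r = -0.42 between log2 ratio and log2 ago18HT level) but not at 2 mm (r = -0.05). Both sides of the correlations between ratio and level use the same ago18HT values.

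**Figure D2:**
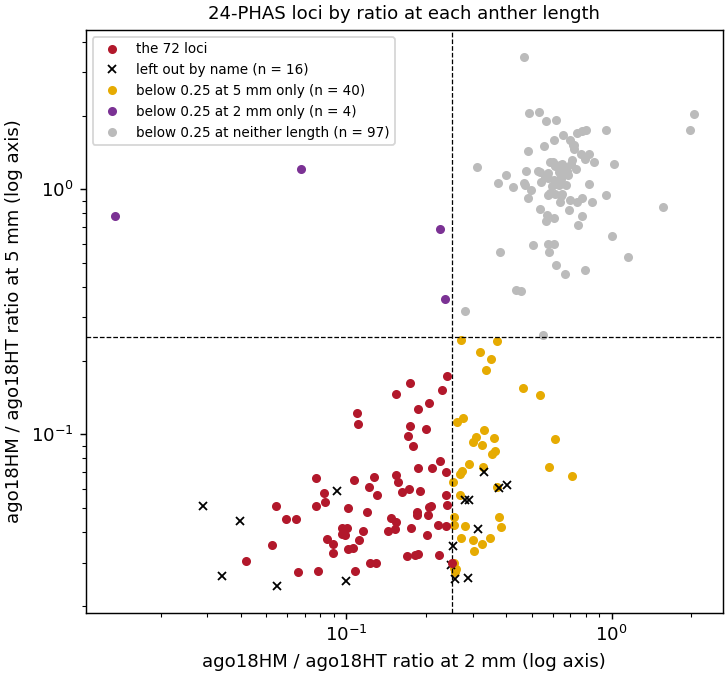
Ratio of ago18HM to ago18HT at 5 mm (vertical, log axis) against the ratio at 2 mm (horizontal, log axis) for the 229 24-PHAS loci, each ratio formed from group means plus 1 CPM. Dashed lines mark 0.25, and the 72 loci fill the lower left field by construction, with 5 mm ratios of 0.0273 to 0.173 that leave a gap below the line and 2 mm ratios that reach up to it.

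At 2 mm loci lay directly on both sides of the limit, while at 5 mm no locus that met the rule at 2 mm lay between 0.173 and 0.356. The members nearest to it at 2 mm were B73_24PHAS_21373 with a ratio of 0.2499, B73_24PHAS_35068 with 0.240 and B73_24PHAS_43608 with 0.239. Just outside were B73_24PHAS_39768 with 0.252, B73_24PHAS_35108 with 0.254 and B73_24PHAS_35085 with 0.255, all meiotic. At 5 mm the highest ratios inside were 0.173 at B73_24PHAS_43608, 0.162 at B73_24PHAS_4408 and 0.151 at B73_24PHAS_53477. The nearest loci outside that met the rule at 2 mm were B73_24PHAS_7023 with 0.356, B73_24PHAS_29316 with 0.688 and the premeiotic B73_24PHAS_22200 with 0.776. Of these, B73_24PHAS_7023 averaged 2.51 CPM and B73_24PHAS_29316 1.36 CPM in ago18HT-5mm. The set held 54 loci without ago18HM-2mm replicate 1, 92 without replicate 2 of that group and 93 without ago18HT-2mm replicate 1, and 55 or 88 loci with a limit of 0.2 or 0.3.

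Among the loci most abundant in the heterozygotes, all mutant libraries lay below all heterozygous ones at both lengths. B73_24PHAS_30716 (chr5:161027802-161029669 in B73 RefGen_v5) had 479.5, 587 and 345 CPM in ago18HM against 8683, 10003 and 9361 CPM in ago18HT at 5 mm. At 2 mm it had 925 and 1538 CPM in ago18HM against 4060.4, 6778 and 7221 CPM in ago18HT. Its ratios were 0.0504 at 5 mm and 0.205 at 2 mm. B73_24PHAS_30735, with the same major small RNA, showed nearly the same values, with 357, 541 and 325 CPM in ago18HM against 7818, 9509 and 8913 CPM in ago18HT at 5 mm. Its values at 2 mm were 896 and 1448 CPM in ago18HM against 3709.6, 7541 and 7734 CPM in ago18HT. Reads that map to several places were included in the counts, so the values of this pair are not independent and each may hold reads of the other.

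B73_24PHAS_35073 (chr6:38832321-38833507) was the most abundant of the 72 in ago18HT-5mm, with 335, 374 and 213 CPM in ago18HM against 9354, 9282 and 10066 CPM in ago18HT at 5 mm. At 2 mm it had 783 and 1357 CPM in ago18HM against 1851, 6507 and 5950.1 CPM in ago18HT, the spread in ago18HT coming from replicate 1. Its ratios of 0.0322 at 5 mm and 0.225 at 2 mm differed by -2.80 on the log2 scale, one of the 2 largest differences in the set. B73_24PHAS_4228 (chr1:181489486-181490424) had 527, 404 and 286 CPM in ago18HM against 8732, 8815 and 6879.9 CPM in ago18HT at 5 mm and 499 and 650.1 CPM in ago18HM against 3696, 6997 and 6321 CPM in ago18HT at 2 mm. Here the mutant libraries of the 2 lengths overlapped, and the ratios were 0.0499 and 0.101 at 5 mm and 2 mm.

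B73_24PHAS_10958 (chr2:81504362-81505791) was the most abundant of the 72 in ago18HT-2mm. It had 363, 262 and 185 CPM in ago18HM against 9051, 7043 and 5682 CPM in ago18HT at 5 mm. It had 417 and 678 CPM in ago18HM against 4386, 8647 and 6448 CPM in ago18HT at 2 mm. B73_24PHAS_21580 (chr4:14830178-14831744) had 322, 356 and 225 CPM in ago18HM against 6338, 6633 and 6384 CPM in ago18HT at 5 mm and 652 and 1044 CPM in ago18HM against 2266, 5574 and 4684 CPM in ago18HT at 2 mm. No heterozygous library of either length reached down to the mutant levels. These 6 loci together held 28.2% to 28.9% of the summed CPM of the 72 in ago18HM-5mm, 29.8% to 35.6% in ago18HT-5mm, 29.9% to 30.4% in ago18HM-2mm and 25.4% to 27.9% in ago18HT-2mm.

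**Figure D3:**
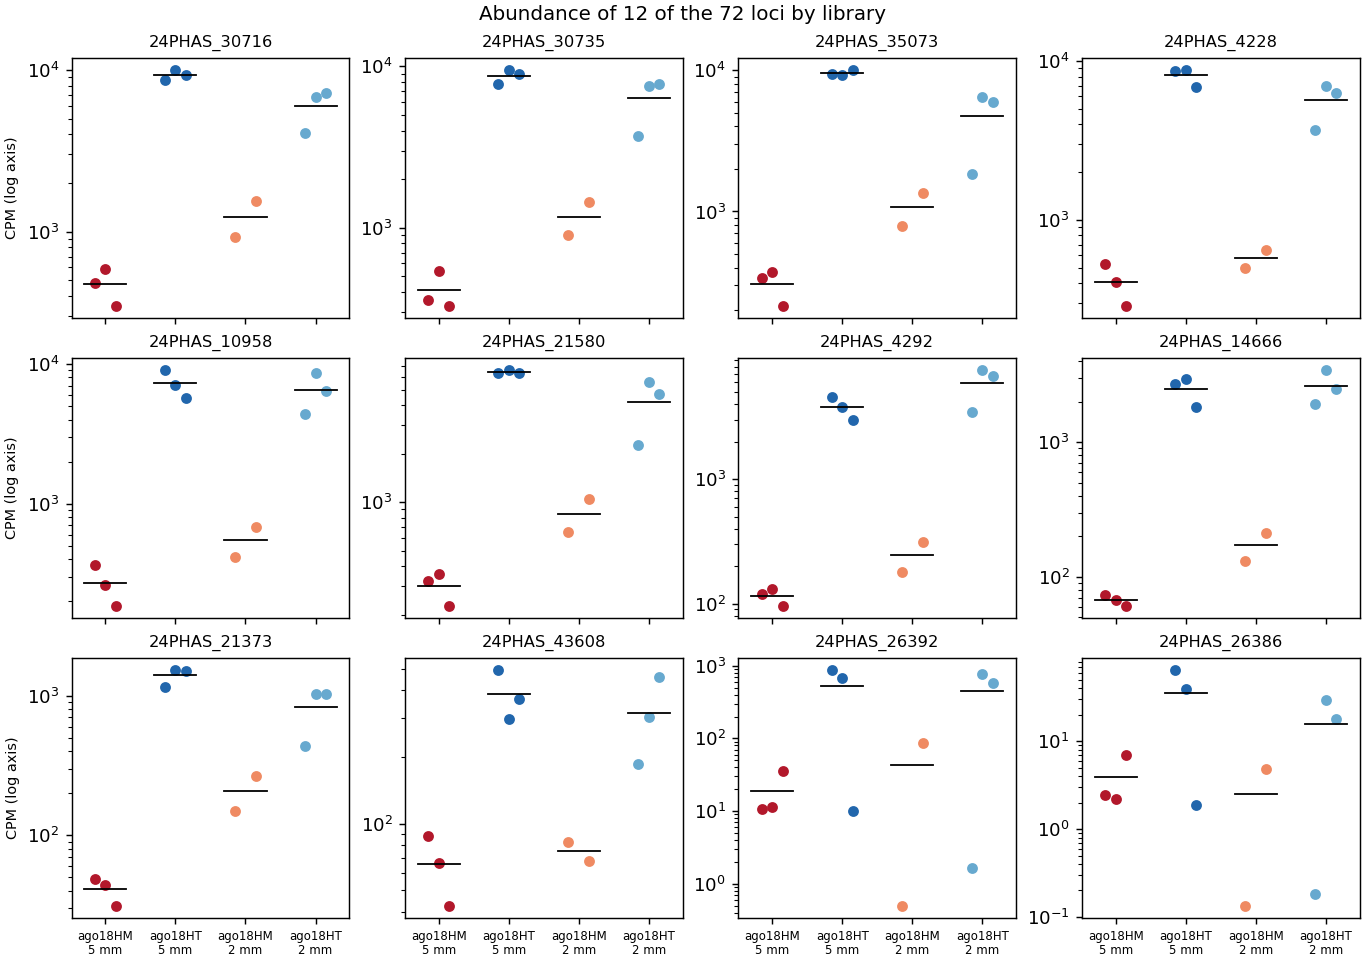
CPM (log axis) in every library (points) and the group mean (line) for 12 of the 72 loci: the 6 most abundant in ago18HT, 2 with the lowest ratio at 2 mm or 5 mm, 2 near the limit and 2 with the largest spread within groups. Mutant points lie below heterozygous points in the first 10 panels, and groups overlap at B73_24PHAS_26392 and B73_24PHAS_26386.

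The deepest depletion at 5 mm was at B73_24PHAS_14666 on chromosome 2. It had 73.2, 66.99 and 60.4 CPM in ago18HM against 2684, 2956 and 1810.3 CPM in ago18HT at 5 mm, a ratio of 0.0273, and 131 and 212 CPM in ago18HM against 1906, 3439.8 and 2496 CPM in ago18HT at 2 mm. The loci next in order were B73_24PHAS_4290, B73_24PHAS_50012 and B73_24PHAS_21369, with ratios of 0.0276, 0.0277 and 0.0299. B73_24PHAS_50012 on chromosome 9 had 63.3, 85.4 and 57.5 CPM in ago18HM against 3071, 2444 and 2052 CPM in ago18HT at 5 mm. B73_24PHAS_4290 had 94.97, 98.2 and 81.2 CPM in ago18HM against 3879, 3307 and 2855 CPM in ago18HT at 5 mm, and B73_24PHAS_21369 had 47.1, 57.9 and 33.7 CPM in ago18HM against 1907, 1508 and 1327 CPM in ago18HT. At these 4 loci the highest ago18HM-5mm value was 98.2 CPM, at B73_24PHAS_4290, and the lowest ago18HT-5mm value 1327 CPM, at B73_24PHAS_21369.

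At 2 mm the lowest ratios belonged to 4 loci of chromosome 1, in 2 of the runs described below. B73_24PHAS_4292 was at 0.0420, the only one of the 72 more than 20-fold lower at this length, with 179.7 and 315 CPM in ago18HM against 3446, 7547 and 6709 CPM in ago18HT at 2 mm. B73_24PHAS_4201 was at 0.0526, with 20.2 and 17.2 CPM in ago18HM against 191, 503 and 424 CPM in ago18HT. B73_24PHAS_4206 was at 0.0543, with 9.67 and 18.9 CPM in ago18HM against 100.1, 402 and 339 CPM in ago18HT. The ratio at 2 mm was near that at 5 mm, where the ratio was 0.0306 at B73_24PHAS_4292, 0.0353 at B73_24PHAS_4201 and 0.0508 at B73_24PHAS_4206. B73_24PHAS_4282 had 56.8 and 99.8 CPM in ago18HM against 626, 1647 and 1743 CPM in ago18HT at 2 mm, with a ratio of 0.0592 at 2 mm and 0.0452 at 5 mm.

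The loci nearest to the limit had, by the rule, the highest ratios at one length. B73_24PHAS_43608 on chromosome 8 had 87.8, 66.8 and 42.4 CPM in ago18HM against 494, 296 and 366 CPM in ago18HT at 5 mm and 82.5 and 67.6 CPM in ago18HM against 186, 304 and 461 CPM in ago18HT at 2 mm. B73_24PHAS_53477 on chromosome 10 had 526, 542 and 325 CPM in ago18HM against 3229, 3255 and 2753 CPM in ago18HT at 5 mm and 524 and 841 CPM in ago18HM against 2632, 3447 and 2873 CPM in ago18HT at 2 mm, the highest mean level of the mutant at 5 mm after B73_24PHAS_30716. B73_24PHAS_21373, at 287 bp the shortest of the 72 loci, had 48.7, 43.5 and 30.9 CPM in ago18HM against 1166, 1536 and 1504 CPM in ago18HT at 5 mm and 149 and 266 CPM in ago18HM against 435, 1028 and 1036 CPM in ago18HT at 2 mm. It was inside the limit at 2 mm by the smallest margin but among the lowest at 5 mm with 0.0300, and its difference of -3.06 between the log2 ratios was the largest of the set. B73_24PHAS_35068 had 135, 149 and 105 CPM in ago18HM against 2788, 2628 and 2206 CPM in ago18HT at 5 mm and 612 and 691 CPM in ago18HM against 1234, 3584 and 3335 CPM in ago18HT at 2 mm.

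The log2 ratios of the 5 related loci of chromosome 1 differed between 5 mm and 2 mm by -0.68 at B73_24PHAS_4402 to 0.15 at B73_24PHAS_4403. B73_24PHAS_4403, the only one of the 72 with a higher ratio at 5 mm than at 2 mm, had 24.99, 22.5 and 15.6 CPM in ago18HM against 177, 173 and 188 CPM in ago18HT at 5 mm and 13.9 and 26.5 CPM in ago18HM against 91.5, 256 and 228 CPM in ago18HT at 2 mm, giving ratios of 0.122 and 0.110. B73_24PHAS_4411 had 16.9, 18.6 and 11.2 CPM in ago18HM against 144, 149.9 and 155 CPM in ago18HT at 5 mm and 11.6 and 23.3 CPM in ago18HM against 68.7, 227 and 202 CPM in ago18HT at 2 mm, with ratios of 0.110 and 0.111. Their mutant libraries of the 2 lengths overlapped. B73_24PHAS_4409 had 10.2, 10.7 and 4.94 CPM in ago18HM against 147, 142 and 143 CPM in ago18HT at 5 mm and 7.22 and 16.3 CPM in ago18HM against 74.6, 229 and 191 CPM in ago18HT at 2 mm. B73_24PHAS_4402 had ratios of 0.108 at 5 mm and 0.174 at 2 mm, and B73_24PHAS_4408, at 3067 bp the longest of the 72, had 0.162 and 0.174. Because 3 of these loci share their major small RNA and the others differ from it at 3 or 4 bases, they may share reads and do not stand for 5 separate measurements.

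Loci with the same major small RNA did not always fall on the same side of the rule. B73_24PHAS_21379 had 38.4, 38.01 and 25.5 CPM in ago18HM against 894, 1173 and 1169 CPM in ago18HT at 5 mm and 72.8 and 158 CPM in ago18HM against 275, 814 and 789 CPM in ago18HT at 2 mm, and its ratios were 0.0324 and 0.186. B73_24PHAS_21376, on the same chromosome and with the same sequence, had a ratio of 0.0334 at 5 mm and 0.303 at 2 mm and was therefore outside. B73_24PHAS_26992 had 8.99, 9.596 and 6.74 CPM in ago18HM against 259.7, 334 and 279.8 CPM in ago18HT at 5 mm and 17.6 and 30.4 CPM in ago18HM against 48.2, 194 and 169.9 CPM in ago18HT at 2 mm, with ratios of 0.0323 and 0.181. Its neighbour B73_24PHAS_26991 had 0.0377 and 0.3496 at 5 mm and 2 mm. B73_24PHAS_30719, whose major small RNA differs from that of B73_24PHAS_30716 by G12A and G21A, had 0.104 and 0.329. All 3 loci outside the rule met the limit at 5 mm and missed it at 2 mm. The side on which a locus fell depended partly on single libraries. B73_24PHAS_21376 met the rule without ago18HM-2mm replicate 2 and also without ago18HT-2mm replicate 1. B73_24PHAS_30719 met it without ago18HM-2mm replicate 2. Reads that map to several places were counted, so loci with the same sequence may share reads. B73_24PHAS_30719 also had a higher ratio than B73_24PHAS_30716 at 5 mm, 0.104 against 0.0504.

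The 4 loci whose major small RNA was not a 24-nt RNA beginning with A had ratios within the range of the others. B73_24PHAS_48725 had 103, 122 and 63.2 CPM in ago18HM against 2130.0, 1956 and 1394 CPM in ago18HT at 5 mm and 188 and 304 CPM in ago18HM against 2279.7, 3917 and 2679 CPM in ago18HT at 2 mm. B73_24PHAS_35090 had 94.6, 140.1 and 95.9 CPM in ago18HM against 1992, 1539 and 1447 CPM in ago18HT at 5 mm and 88.97 and 161 CPM in ago18HM against 413, 1452 and 1105 CPM in ago18HT at 2 mm. Their ratios at 5 mm and 2 mm were 0.0531 and 0.0834 for B73_24PHAS_48725 and 0.0670 and 0.127 for B73_24PHAS_35090. B73_24PHAS_4277 had 20.4, 35.2 and 18.9 CPM in ago18HM against 560.2, 392 and 390.3 CPM in ago18HT at 5 mm and 21.6 and 36.7 CPM in ago18HM against 120.4, 458 and 519 CPM in ago18HT at 2 mm. B73_24PHAS_21186, the locus with the 22-nt sequence, had 60.7, 78.2 and 36.1 CPM in ago18HM against 1363, 799 and 567 CPM in ago18HT at 5 mm and 104 and 125 CPM in ago18HM against 862, 1406 and 975 CPM in ago18HT at 2 mm. CPM values count all reads at a locus, so they do not give the level of the printed sequence itself.

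Mutant and heterozygous libraries did not overlap at 70 of the 72 loci at 5 mm and at the same number at 2 mm. Over all 659 loci, 24.7% had every ago18HM library below every ago18HT library at 5 mm and 25.5% at 2 mm. The rule used this contrast, and nothing is read from these counts. The exceptions at both lengths were B73_24PHAS_26392 and B73_24PHAS_26386, at chr4:240142000-240143337 and chr4:240059416-240059938. B73_24PHAS_26392 had 10.7, 11.4 and 35.4 CPM in ago18HM against 876, 677 and 10.04 CPM in ago18HT at 5 mm and 0.49 and 86.3 CPM in ago18HM against 1.62, 767 and 575 CPM in ago18HT at 2 mm. B73_24PHAS_26386 had 2.41, 2.21 and 7.04 CPM in ago18HM against 64.8, 39.5 and 1.87 CPM in ago18HT at 5 mm and 0.132 and 4.83 CPM in ago18HM against 0.183, 29.7 and 17.9 CPM in ago18HT at 2 mm. At both loci ago18HT-5mm replicate 3 and ago18HT-2mm replicate 1 were at mutant levels or lower, and ago18HM-2mm replicate 1 was the lowest library of the mutant. B73_24PHAS_26391, which lies between them, had 362, 165 and 124 CPM in ago18HM against 4361, 3126 and 2088 CPM in ago18HT at 5 mm and 199.5 and 417 CPM in ago18HM against 1452, 2423 and 2169 CPM in ago18HT at 2 mm and did not share this pattern. The labels give the plants as mostly B73, and whether plants differed at these loci was not tested. B73_24PHAS_21197 had 2.36, 2.03 and 0.749 CPM in ago18HM against 88.5, 53.2 and 35.9 CPM in ago18HT at 5 mm and 2.39 and 2.06 CPM in ago18HM against 76.9, 60.1 and 9.77 CPM in ago18HT at 2 mm, where ago18HT replicate 3 was well below replicates 1 and 2. An SD of log2(CPM + 1) above 1 was found at 12 loci in ago18HT-2mm, 6 in ago18HM-2mm, 2 in ago18HT-5mm and 0 in ago18HM-5mm, and at 15 of the 72 in at least 1 group. The median SD over the 72 loci was 0.37 in ago18HM-5mm, 0.30 in ago18HT-5mm, 0.52 in ago18HM-2mm and 0.60 in ago18HT-2mm.

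The 39 loci not picked by the naming rules, B73_24PHAS_4402 and B73_24PHAS_26391 among them, fell between these examples. Their means over ago18HT ran from 61.1 to 4825 CPM, their ratios from 0.0299 to 0.146 at 5 mm with a median of 0.0483, and from 0.0772 to 0.238 at 2 mm with a median of 0.154.

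On the genome many of the 72 loci lay near another of them. Positions are those of the B73 RefGen_v5 assembly as given in the study's annotation. There were 19 of them on chromosome 4, 17 on chromosome 1, 10 on chromosome 6, 7 on chromosome 5, 6 on chromosome 2, 5 on chromosome 10, 3 each on chromosomes 8 and 9 and 1 each on chromosomes 3 and 7. As a share of the meiotic 24-PHAS loci of the chromosome, this was 73.1% on chromosome 4, 60.0% on chromosome 2 and 47.6% on chromosome 6. It was 45.9% on chromosome 1 and 23.1% to 45.5% on the other chromosomes. The meiotic loci counted here include those left out by name, some of them on chromosome 1. With members up to 1 Mb apart joined, 60 loci fell into 16 runs of 2 to 6 loci and 12 stood alone, and 43 had another of the 72 within 100 kb. No test of this grouping was made, and the share of 24-PHAS loci that lie in runs is set by the annotation as well. The same counts over all 24-PHAS or all meiotic loci are not given here. Grouping is therefore not read as a trait of the 72.

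Ratios were alike within some runs and not in others. In the run at chr1:182702004-183042666 the 5 members had ratios of 0.0276 to 0.0576 at 5 mm and 0.0420 to 0.0966 at 2 mm, and in the run at chr1:180470771-181570675 the 5 members had 0.0353 to 0.0582 and 0.0526 to 0.162. The 6 members at chr1:187655138-187848489, which include the related loci described above, had 0.0663 to 0.162 at 5 mm and 0.0769 to 0.174 at 2 mm. The ranges of the 2 lengths overlapped in all 3 of these runs. On chromosome 6 the run at chr6:38318854-40242327 held 5 members among 12 meiotic loci, 6 of which met the limit at 5 mm only. On chromosome 4 all 6 members at chr4:4741630-5029104 spanned 0.0328 to 0.105 at 5 mm and 0.0646 to 0.221 at 2 mm. The run at chr4:7762157-7865522 had ratios of 0.0299 to 0.0402 at 5 mm in 4 members, while at 2 mm it ran from 0.1298 to 0.2499.

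**Figure D4:**
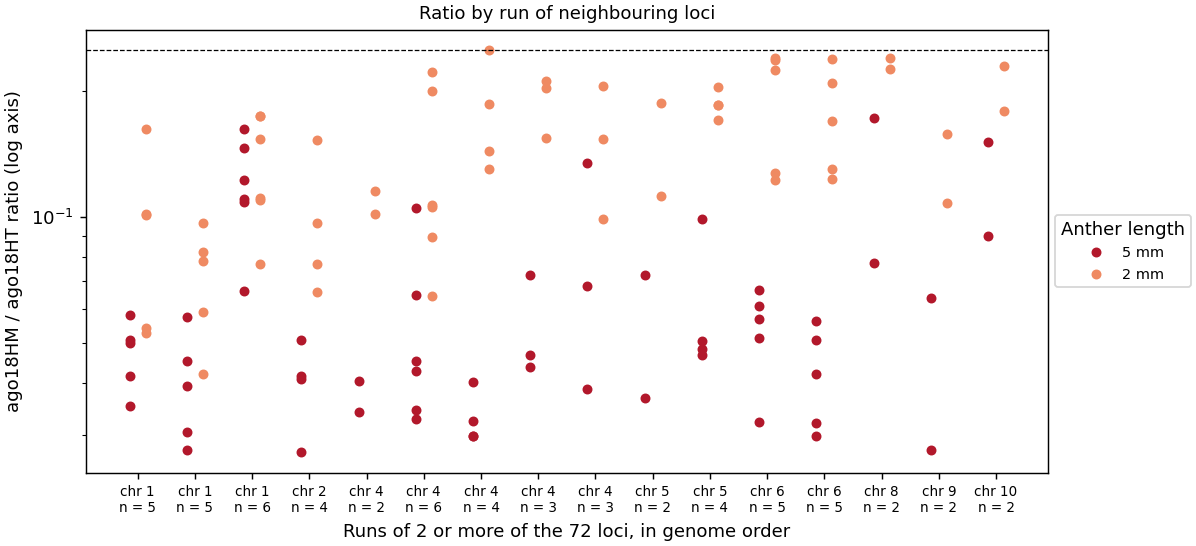
Ratio of ago18HM to ago18HT (log axis) at 5 mm and 2 mm for the members of each of the 16 runs of 2 or more loci, in genome order, with the limit of 0.25 dashed. In the third run of chromosome 1 the ratios lie between 0.0663 and 0.162 at 5 mm and between 0.0769 and 0.174 at 2 mm, and in the run of 4 loci on chromosome 4 they lie between 0.0299 and 0.0402 at 5 mm and between 0.1298 and 0.2499.

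Few of the loci lay in annotated genes. Of the 72, 12 overlapped a gene of the RefSeq annotation of the same assembly (16.7%), against 6 of the 40 loci that met the limit at 5 mm only, 32 of all other 82 meiotic loci (39.0%) and 17 of 75 premeiotic loci (22.7%). The overlapped genes were 5 long noncoding RNAs, 5 protein-coding genes and 2 transcribed pseudogenes. B73_24PHAS_30735 overlapped the long noncoding RNA gene LOC103627135 and B73_24PHAS_4290 the long noncoding RNA gene LOC103640833, whereas B73_24PHAS_21373 overlapped the protein-coding gene LOC111591297 and B73_24PHAS_4292 the protein-coding gene LOC100277762. Among the 25 meiotic loci that met the limit at neither length, 20 overlapped a protein-coding gene, and the median level of these 25 was 3.005 CPM in ago18HT-5mm, against 1355 CPM for the 72. Only whole-gene spans were compared, so exons and introns were not distinguished.

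The loci had a median length of 1362.5 bp, with a range of 287 to 3067 bp, against 1174 bp for the other meiotic loci and 2981 bp for the premeiotic loci. Of the 72 major small RNAs, 71 were 24 nt long and 69 began with A (95.8%), compared with 75 of 82 (91.5%) in the other meiotic loci and 74 of 75 (98.7%) in the premeiotic loci. At the 3′ end C was the most frequent base, in 35 of 72, followed by G in 22, U in 10 and A in 5. The median GC content of the sequences was 45.8% in the 72 as in the other meiotic loci, and 41.7% in the premeiotic loci. These shares are descriptions and no difference between the sets was tested.

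The change between anther lengths within one genotype was tested with limma over all 659 loci, with p-values adjusted by Benjamini-Hochberg, and calls needed an adjusted p under 0.05 together with more than 1.5-fold change. The libraries are the ones that chose the loci, so the test is not independent of the rule. In the mutant many of the loci fell further in the longer anthers. In ago18HM, 37 of the 72 loci were called lower at 5 mm than at 2 mm, where 20.2% of all loci were called lower, and 0 were called higher, where 3.95% of all loci were. No member had an unadjusted p below 0.05 in the higher direction either, and a limma-voom fit also called 0 higher and 36 lower. Of the other 82 meiotic loci 29 were called lower and 3 higher, and of the 75 premeiotic loci 0 and 1. The median log2 change of the 72 in ago18HM was -1.11, against -0.22 over all loci, -0.92 in the other 82 meiotic loci and -0.09 in the premeiotic loci. A fall in the mutant was thus also seen at meiotic loci outside the 72. Of these 82, 40 met the limit at 5 mm only, a sorting that used values of the same libraries. No contrast between the 2 sets is drawn for this reason. The called changes of the 72 ran from -2.33 to -1.06 on the log2 scale, with limma adjusted p from 0.00441 to 0.0489.

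The largest decreases in the mutant were at loci of chromosomes 4 and 6. B73_24PHAS_35068, with 135, 149 and 105 CPM at 5 mm against 612 and 691 CPM at 2 mm in ago18HM, changed by -2.33 ± 0.41 (SE) on the log2 scale (limma, adjusted p = 0.00511). B73_24PHAS_21373, with 48.7, 43.5 and 30.9 CPM at 5 mm against 149 and 266 CPM at 2 mm, changed by -2.28 ± 0.40 (limma, adjusted p = 0.00542). B73_24PHAS_35587 on chromosome 6, with 24.9, 24.7 and 20.4 CPM at 5 mm against 87.6 and 152 CPM at 2 mm, changed by -2.26 ± 0.39 (limma, adjusted p = 0.00448). At these 3 loci all mutant libraries of 5 mm lay below both mutant libraries of 2 mm, as they did at 52 of the 72 loci, where 34.7% of all loci showed this. The calls depended on few libraries. Without ago18HM-2mm replicate 2, the higher of the pair at most loci, only 5 of the 72 were called, where 10.02% of all loci were in that fit, and without replicate 1 of the same group 24 were. Leaving out ago18HM-5mm replicate 3 gave 13 calls. When libraries were centred on the 21-PHAS median, the median over all loci moved by 0.17 (log2), leaving 15 of the 72 called, with a median of -0.95 for the 72 and -0.05 for all loci.

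In the heterozygotes few of the same loci were called, and the median change with anther length depended on ago18HT-2mm replicate 1. In ago18HT, 1 of the 72 was called higher at 5 mm than at 2 mm, where 4.7% of all loci were, and 0 were called lower, where 7.89% of all loci were. No member had an unadjusted p below 0.05 in the lower direction, 10 had one in the higher direction, and the limma-voom fit called 1 higher and 0 lower. The single call was B73_24PHAS_35107, with 2933, 3104 and 3155 CPM at 5 mm against 800.0, 1616 and 1409.6 CPM at 2 mm in ago18HT, a change of 1.33 ± 0.28 (SE) on the log2 scale (limma, adjusted p = 0.0134). It was not called without ago18HT-5mm replicate 2 or without replicate 3 of that group. The median log2 change of the 72 was 0.31, against -0.0042 over all loci and 0.50 in the other 82 meiotic loci, and without ago18HT-2mm replicate 1 it was -0.07. The summed CPM of the 72 at 5 mm was 1.22 times that at 2 mm in ago18HT, or 1.02 times without that library, and 0.418 times in ago18HM. Every ago18HT-5mm library was above every ago18HT-2mm library at 13 of the 72 loci, where 22.9% of all loci showed this. At 12 loci this coincided with the opposite order in ago18HM, where 6.07% of all loci showed both, and 0 of the 12 were called in both genotypes. Whether the length change differed between genotypes is the difference of the ratios that chose the loci and was not tested.

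**Figure D5:**
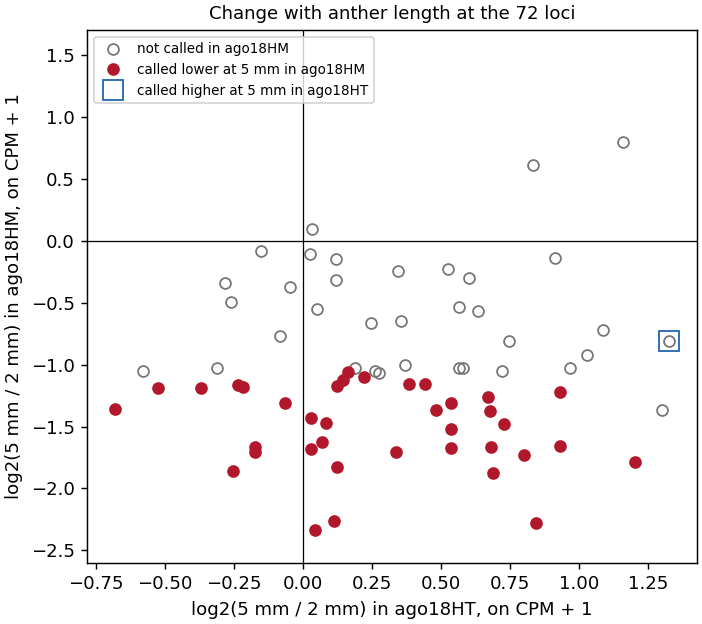
Change between 5 mm and 2 mm anthers on the log2(CPM + 1) scale in ago18HM (vertical) against that in ago18HT (horizontal) for the 72 loci, with loci called by limma in ago18HM filled and the one called in ago18HT boxed. Of the points, 69 lie below 0 on the vertical axis and 56 lie above 0 on the horizontal axis.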

How the data were processed

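The authors mapped TraPR small RNA reads with Bowtie 1.3.1 on B73 RefGen_v5, counted them over PHAS loci with featureCounts 1.6.3 with multi-mapped reads included, and deposited CPM values made with edgeR 4.0.2. The size range of the counted reads and the CPM denominator are not given in the sources used here. The table held 659 loci, and 0 value columns were without a sample. Samples were grouped by their titles. Stage labels, positions and major small RNAs came from the annotation supplement of the study, and overlaps with genes from the RefSeq annotation of the same assembly. The members and lists were chosen with earlier results of these data known.

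A filter of 1 CPM in 2 or more libraries removed none of the 659 loci. Values of log2(CPM + 1) were modelled in limma 3.58.1 (R 4.3.3) with 4 group means over 11 libraries and eBayes with trend. The fit was also run on simulated counts with a common dispersion and no library standing apart. That setting differs from these libraries, so no support for the calls is drawn from it. Fold changes on this scale understate changes of low loci. Named loci were the most abundant, those with the lowest ratios, those nearest the limit, those with an unusual or shared major small RNA, those with the largest called length changes, those with the largest spread and those with the most different ratios between lengths. B73_24PHAS_4402, B73_24PHAS_26391 and B73_24PHAS_30719 were named with their values in view. Alternatives comprised other pseudocounts, filters, scalings, limits and thresholds, a replicate block, fits of only the compared groups, limma-voom on recovered reads (added after seeing the data) and leaving out each library.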

Additional observations from a re-analysis of the deposited data

Results flagged for a closer look

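At 12 of the 72 loci (16.7%) every ago18HM-5mm library lay below every ago18HM-2mm library while every ago18HT-5mm library lay above every ago18HT-2mm library. Over all loci, 40 of 659 (6.07%) showed this. The other 82 meiotic loci, with a median ago18HT change of 0.50 against 0.31 in the 72, were not counted apart. Their median ago18HM change was -0.92, against -1.11 in the 72. The share of 16.7% is therefore not read as particular to the 72. The difference between the genotypes was not tested, since the ratios that chose the loci contain it. By limma, 8 of the 12 were called lower in ago18HM, 1 was called higher in ago18HT, 0 were called in both and 3 in neither. The difference was widest at B73_24PHAS_21373, with log2 changes of -2.28 in ago18HM and 0.85 in ago18HT, and at B73_24PHAS_35073, with -1.78 and 1.20. Without ago18HT-2mm replicate 1, the lowest library of its group at most of the loci, the ago18HT change was 0.43 at B73_24PHAS_21373 and 0.62 at B73_24PHAS_35073, and its median over the 12 was 0.48, against 0.93 with all libraries. The 12 include B73_24PHAS_30716 (-1.37 in ago18HM and 0.68 in ago18HT) and B73_24PHAS_30735 (-1.52 and 0.54), which share their major small RNA and may share reads. Groups had 2 or 3 libraries, so single libraries could not be tested as outliers.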

How the results depend on the processing

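The number of loci under the rule stayed within 1.5 times of 72 in every alternative, between 54 and 93 with a library left out and between 55 and 90 otherwise. The count of 37 loci called lower at 5 mm in ago18HM was 15 after centring on the 21-PHAS loci, 24 with median-ratio size factors, 8 at an adjusted p below 0.01, 22 with only the libraries of the 2 groups, and 5 to 45 with a library left out. The 1 locus called higher in ago18HT became 2 with a pseudocount of 5, with a mean of at least 10 CPM, with centring on the 21-PHAS loci, with median-ratio size factors and with only the 2 groups, 0 at an adjusted p below 0.01, and 0 to 2 with a library left out. The call at B73_24PHAS_35107 was lost at an adjusted p below 0.01 and without ago18HT-5mm replicate 2 or 3. No alternative called a member lower in ago18HT or higher in ago18HM. Where a lone ago18HM-2mm library remained, it was assumed to vary like the other groups. Summed CPM ratios moved by less than the spread between libraries in all alternatives, and the ratio at 5 mm over 2 mm in ago18HT ran from 1.02 to 1.41 with a library left out. The stricter p allows fewer calls and the fits of 2 groups use fewer libraries by construction. For the other alternatives the cause was not tested.

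With the replicate number as a block, 28 members were called lower in ago18HM and 1 higher in ago18HT. The labels do not say that the numbers pair plants. Correlations of deviations were above 0.1 in 5 of 15 same-numbered pairs of libraries, against 15 of 30 other pairs. Between ago18HT-5mm and ago18HT-2mm they were -0.0095, 0.575 and 0.309 for replicates 1, 2 and 3. Differently numbered pairs of these groups ran from -0.474 to 0.107. Deviations from a group mean are tied to each other within the group, so these values cannot decide whether plants were paired. Quasi-likelihood and negative binomial count fits were planned and not run, and limma-voom on reads computed from the CPM steps, added after seeing the data, was run in their place. Depth, 5419067 reads in the shallowest library, places 3 reads at up to 0.554 CPM, which is below all mutant values at 5 mm of these loci, counting error only.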
